A study of Rattus norvegicus with 12 samples.

Results

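The genes described here are the inhibins, activins and follistatins: the subunit genes Inha, Inhba and Inhbb, the related ligand genes Mstn and Gdf11, the binding-protein genes Fst, Fstl1 and Fstl3, and the receptor genes Acvr2a and Acvr2b. They were taken by symbol from the deposited count and TPM tables, 10 of 17419 genes, in primary cultures of ventricular heart cells from newborn (P0) wild-type Sprague-Dawley rats. The family was chosen by the measured levels of Inha, which differed stepwise over the groups, so these levels are a description and carry no test. A filter on low counts kept 9 of the 10 genes. Mstn, with 0 to 7 counts in a library, did not pass it, which left 8 genes besides Inha for testing.

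Small interfering RNAs (siRNA) were transfected for 48 h. The double knockdown received 10 nM siBtg1 and 10 nM siBtg2. The Btg1 knockdown received 10 nM siBtg1 topped up with 10 nM of scrambled siRNA, and the Btg2 knockdown had the same top-up beside 10 nM siBtg2. The scramble control received 20 nM of the scrambled siRNA. Each group had 3 libraries, and every culture carried the same total dose. Btg1 and Btg2 encode related antiproliferative proteins that bind the CCR4-NOT deadenylase, the complex that shortens poly(A) tails of messenger RNA. The cultures were enriched for cardiomyocytes by removing fibroblasts rather than purified, and no label states that replicates are separate cultures or litters. The p-values then weigh group differences against a spread among libraries that could be technical.

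Total counts ran from 24434925 to 46206581 per library, and no library duplicated another. Agreement was lowest between double knockdown replicates 1 and 3, whose counts gave a chi-square of 27.0 per degree of freedom, against 4.18 for the closest pair of replicates. Levels are given as CPM, counts scaled to library size with edgeR's TMM factors. Btg1 lay at 49.8 to 54.4 CPM in the double knockdown and 61.8 to 69.9 CPM in the Btg1 knockdown, against 281 to 285 CPM in scramble. Btg2 lay at 67.6 to 69.6 CPM in the double knockdown and 82.8 to 87.4 CPM in the Btg2 knockdown, against 132 to 144 CPM in scramble. In the Btg1 knockdown, Btg2 lay at 170 to 179 CPM, above every scramble library.

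The 11 cardiomyocyte markers in the table, among them the troponin T gene Tnnt2, summed to 40190 to 40975 TPM, a length-adjusted share of transcripts, in the double knockdown, 38577 to 44317 in the Btg1 knockdown and 41055 to 46495 in the Btg2 knockdown, against 37851 to 38793 in scramble. The 10 fibroblast markers summed to 5544.9 to 6279.8 TPM in the double knockdown, 5611.8 to 6394.4 in the Btg1 knockdown and 6734.4 to 6870.6 in the Btg2 knockdown, against 6949.3 to 7118.6 in scramble. None of the fibroblast markers was at 0, and 9 of the 10 were lower in the double knockdown, 8 in the Btg1 knockdown and 5 in the Btg2 knockdown by the quasi-likelihood test of edgeR, adjusted by the Benjamini-Hochberg method (edgeR adjusted p). By this test the cardiomyocyte markers did not move one way, with 2 higher and 3 lower in the double knockdown. In the Btg1 knockdown 3 of them were higher and 4 lower, and in the Btg2 knockdown 5 were higher and none lower. Tnnt2 passed in no knockdown. The 10 endothelial markers, none at 0, summed to 55 to 59.8 TPM in the double, 65.7 to 74.6 in the Btg1 and 64.6 to 68.5 in the Btg2 knockdown, against 74.3 to 81 in scramble, with 8, 2 and 4 of them lower and 1, 1 and 0 higher in the knockdowns in that order. The 10 macrophage markers, none at 0, summed to 55.4 to 58 TPM in the double, 50.2 to 60.5 in the Btg1 and 47.9 to 48.9 in the Btg2 knockdown, against 64.1 to 79.2 in scramble, with 3, 3 and 7 of them lower. The 7 smooth muscle and pericyte markers, none at 0, summed to 2880.2 to 3125.1 TPM in the double, 3124.6 to 3862.2 in the Btg1 and 3096.9 to 3456 in the Btg2 knockdown, against 2684.1 to 2922.5 in scramble, so that both single knockdowns lay above scramble. Of these markers 3 were higher and 2 lower in the double, 2 higher and 1 lower in the Btg1 and 1 higher in the Btg2 knockdown, among them the calponin gene Cnn1 at 2.28-fold, 2.73-fold and 1.94-fold of scramble in that order. Cnn1 changed most of the 7 markers in each knockdown, and the median log2 changes of the list were 0.09, 0.21 and 0.15 in the same order. The 5 epicardial markers in the table, none at 0, summed to 86.6 to 91.8 TPM in the double, 88.8 to 92 in the Btg1 and 88.9 to 90.2 in the Btg2 knockdown, against 83.4 to 86.6 in scramble; 1 was higher in each knockdown, and 1 was lower in the double and in the Btg2 knockdown. Of all tested genes, 19.4% were higher and 19.5% lower in the double, 18.7% and 17.8% in the Btg1 and 16.4% and 13.6% in the Btg2 knockdown. With lists of 5 to 11 markers, counts near these shares are not read as apart from them. The part of these cell types in the results was not tested. In bulk RNA, fewer cells of a type and less RNA per cell cannot be told apart.

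Inhibins and activins are secreted dimers of the transforming growth factor beta superfamily. Activins pair beta subunits, made from Inhba (beta A) or Inhbb (beta B), and signal through the type II receptors ACVR2A and ACVR2B and the type I receptor ALK4 to SMAD2 and SMAD3. Inhibins pair the alpha subunit, made from Inha, with a beta subunit, and oppose activin at its receptors; they are best known as gonadal hormones that restrain pituitary follicle-stimulating hormone. Follistatin and follistatin-like 3 bind and neutralise activins, myostatin and GDF11, and in the heart this family is studied for its part in growth and in remodelling after injury.

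Inha, the inhibin alpha subunit gene, was highest in the double knockdown, next in the Btg1 knockdown, then in the Btg2 knockdown, and lowest in scramble. It stood at 136, 139 and 143 CPM in the double knockdown, 103, 106 and 110 CPM in the Btg1 knockdown and 71.1, 70.4 and 73.7 CPM in the Btg2 knockdown, against 48.0, 47.7 and 51.1 CPM in scramble. No library of one group overlapped with another group. The means were 139 ± 3.39, 106 ± 3.51 and 71.8 ± 1.76 CPM in the double, Btg1 and Btg2 knockdowns, against 48.9 ± 1.89 CPM in scramble (SD, n = 3 each). Relative to scramble that is 2.85-fold, 2.17-fold and 1.47-fold. The double knockdown stood 1.31-fold above the Btg1 knockdown and 1.94-fold above the Btg2 knockdown, and the log2 change in the double knockdown, 1.51, was 0.16 below the sum of 1.12 and 0.55 in the single knockdowns. On the length-adjusted scale, Inha averaged 198, 149 and 101 TPM in the double, Btg1 and Btg2 knockdowns, against 69.1 TPM in scramble, where it was second only to Fstl1 in the family.

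**Figure D1:**
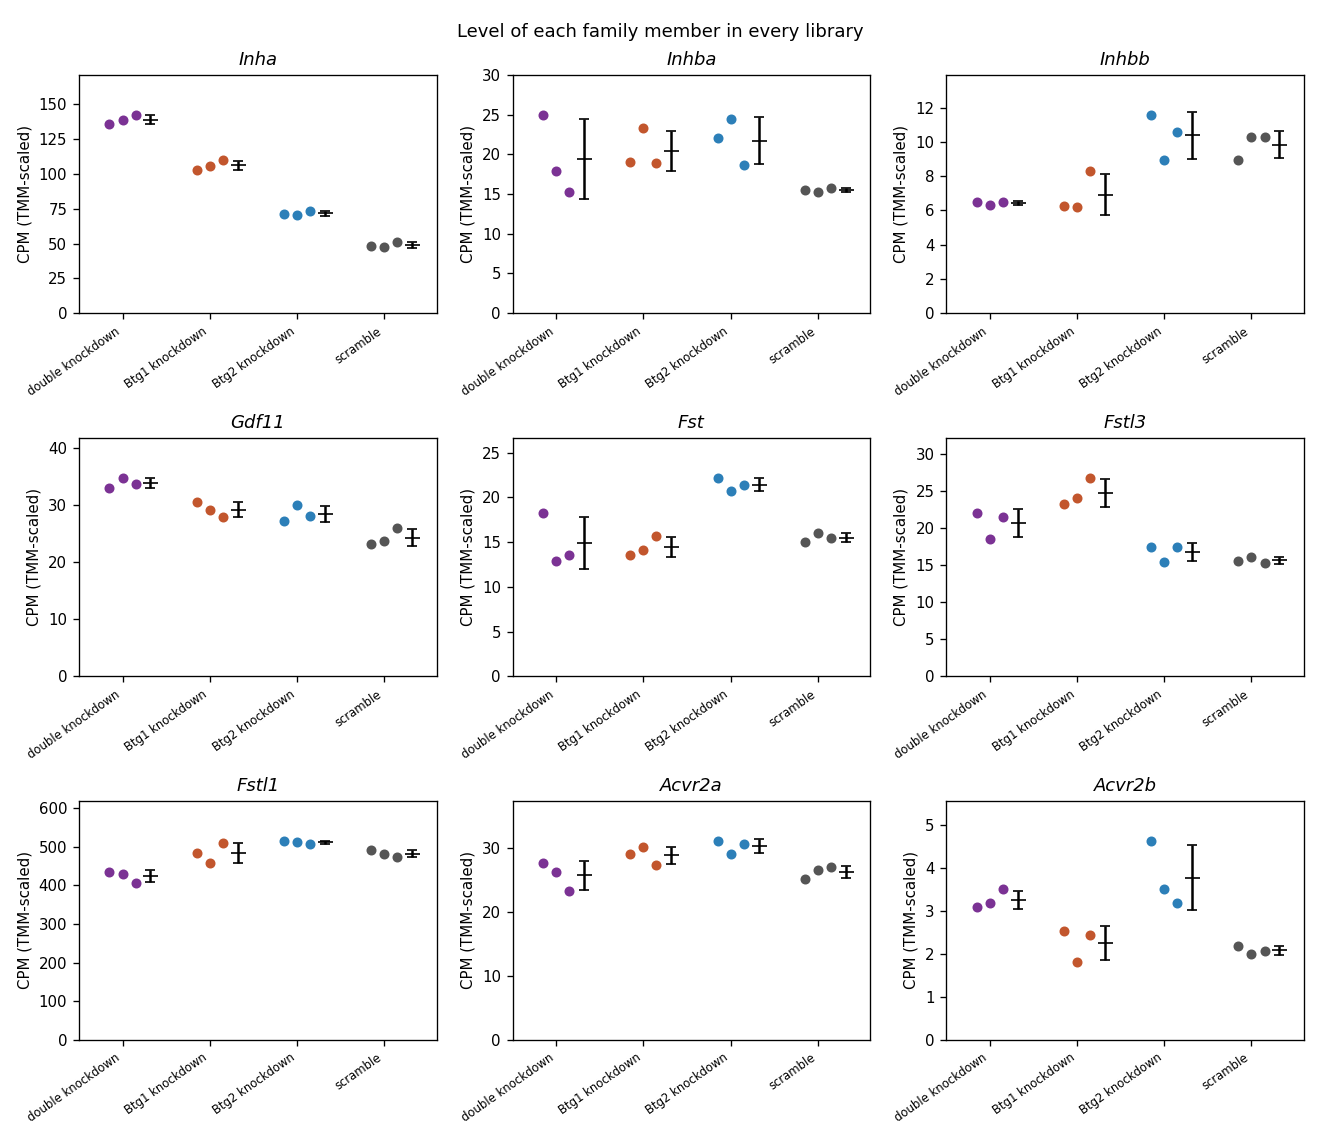
TMM-scaled CPM (vertical axis, linear from 0) of the 9 family members that passed the filter on low counts, with a point for each library and the mean ± SD of 3 libraries beside each group. Inha separates all 4 groups, the points of Fstl3 lie highest in the Btg1 knockdown and those of Fst in the Btg2 knockdown.

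In gonadal cells the Inha promoter is known to respond to cyclic AMP through a variant cyclic AMP response element (CRE), and GATA factors and NR5A family receptors act on it there. Because Inha and Gdf11 were the members that stood above scramble in each knockdown, their upstream sequences are shown. They are the 250 bases before the annotated start from RefSeq, rat assembly GRCr8, which is not the build the authors used. The Inha window is on the plus strand at chr9:84442859-84443108 and the Gdf11 window on the minus strand at chr7:1905223-1905472. Capitals mark a short CRE motif, read TGACG on one strand and CGTCA on the other, or a GATA motif.
Inha: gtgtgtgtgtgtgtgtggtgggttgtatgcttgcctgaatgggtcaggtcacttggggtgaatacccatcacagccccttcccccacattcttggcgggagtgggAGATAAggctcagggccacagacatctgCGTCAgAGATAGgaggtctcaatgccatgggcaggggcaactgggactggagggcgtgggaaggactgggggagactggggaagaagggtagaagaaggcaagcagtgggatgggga
Gdf11: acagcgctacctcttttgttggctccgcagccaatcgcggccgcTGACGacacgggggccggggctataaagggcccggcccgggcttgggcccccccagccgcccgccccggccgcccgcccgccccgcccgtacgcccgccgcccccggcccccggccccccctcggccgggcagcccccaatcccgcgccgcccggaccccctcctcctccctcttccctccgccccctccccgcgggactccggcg
Searched on both strands, the Inha window held the short CRE motif on the opposite strand at bases -117 to -113 from the start, between GATA motifs at -145 to -140 (AGATAA) and at -111 to -106 (AGATAG). The Gdf11 window held TGACG at -206 to -202 and no GATA motif. Of 33469 rat promoter windows of 250 bases, 18.2% held TGACG, 27% held a GATA motif (AGATAA or AGATAG, or with another first letter TGATAA or TGATAG) and 1.59% held the full CRE TGACGTCA, which includes TGACG. Windows were found for 8 of the 10 genes, all but Fst and Mstn. Acvr2a also held TGACG, at -86 to -82, and Inhba also held AGATAG, at -181 to -176. None of the 8 windows held the full CRE or the palindrome GTCTAGAC bound by SMAD proteins, which 0.173% of windows held. No motif of the NR5A family receptors was searched for, so the marks say nothing of such sites. These matches are letters in a window, and binding was not measured.

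The beta subunit genes did not follow Inha. Inhbb, which encodes the beta B subunit of activin B and inhibin B, stood at 6.52, 6.32 and 6.52 CPM in the double knockdown, 6.27, 6.19 and 8.33 CPM in the Btg1 knockdown and 11.6, 8.94 and 10.6 CPM in the Btg2 knockdown, against 8.96, 10.3 and 10.3 CPM in scramble. All 6 libraries that received siBtg1 lay below all 6 that did not. The fall against scramble was -0.61 ± 0.12 on the log2 scale (SE) in the double knockdown (edgeR adjusted p = 0.000233) and -0.52 ± 0.12 in the Btg1 knockdown (edgeR adjusted p = 0.00125). In the Btg2 knockdown the difference from scramble, 0.09 ± 0.11, did not pass (edgeR adjusted p = 0.619). The double knockdown did not differ from the Btg1 knockdown beyond the spread (log2 difference -0.09 ± 0.12, edgeR adjusted p = 0.627).

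Inhba, the beta A subunit gene, had the higher level of the beta subunits, 19.7 TPM in scramble against 6.23 TPM for Inhbb. It stood at 25.0, 17.9 and 15.3 CPM in the double knockdown, 19.0, 23.4 and 18.9 CPM in the Btg1 knockdown and 22.1, 24.5 and 18.7 CPM in the Btg2 knockdown, against 15.5, 15.2 and 15.8 CPM in scramble. Every library of the single knockdowns lay above scramble, while the double knockdown spread over the whole range. The log2 differences from scramble were 0.32 ± 0.17, 0.40 ± 0.17 and 0.48 ± 0.17 in the double, Btg1 and Btg2 knockdowns, and none passed (edgeR adjusted p = 0.157, 0.0856 and 0.0523). With only the groups compared in the fit, the single knockdowns passed (edgeR adjusted p = 0.000458 for Btg1 and 0.000185 for Btg2), and the double knockdown passed without its replicate 3 (edgeR adjusted p = 0.0193). For the Btg2 knockdown, DESeq2 also passed (adjusted p = 0.0295), as did limma (0.0324 and 0.0338 with pseudocounts of 1 and 0.1), edgeR with a filter of 1 CPM in 6 libraries (0.0436) and edgeR without Btg2 knockdown replicate 3 (0.031). Without replicate 1, its highest library, the double knockdown was lower than the Btg2 knockdown (-0.38, edgeR adjusted p = 0.0116). Its change then departed from the sum of the single changes by -0.78 (edgeR adjusted p = 0.000945). With all libraries neither passed (edgeR adjusted p = 0.52 and 0.146). Over the alternatives, the difference of the double knockdown from scramble ran from 0.097 to 0.470.

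The transcript ratio of the alpha to the summed beta subunits followed from these levels. On TPM it was 5.34, 7.33 and 8.56 in the double knockdown, 5.16, 4.43 and 5.28 in the Btg1 knockdown and 2.84, 2.70 and 3.42 in the Btg2 knockdown, against 2.68, 2.60 and 2.71 in scramble. The Btg1-targeted libraries all lay above the others, and the lowest Btg2 knockdown library lay just under the highest scramble library. The ratio of Inhba to Inhbb was 6.07 ± 1.52 in the double knockdown, 6.09 ± 1.51 in the Btg1 knockdown and 4.31 ± 1.08 in the Btg2 knockdown, against 3.18 ± 0.278 in scramble (SD, n = 3 each). These ratios contain Inha or genes tested one by one, and are given without a test.

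**Figure D2:**
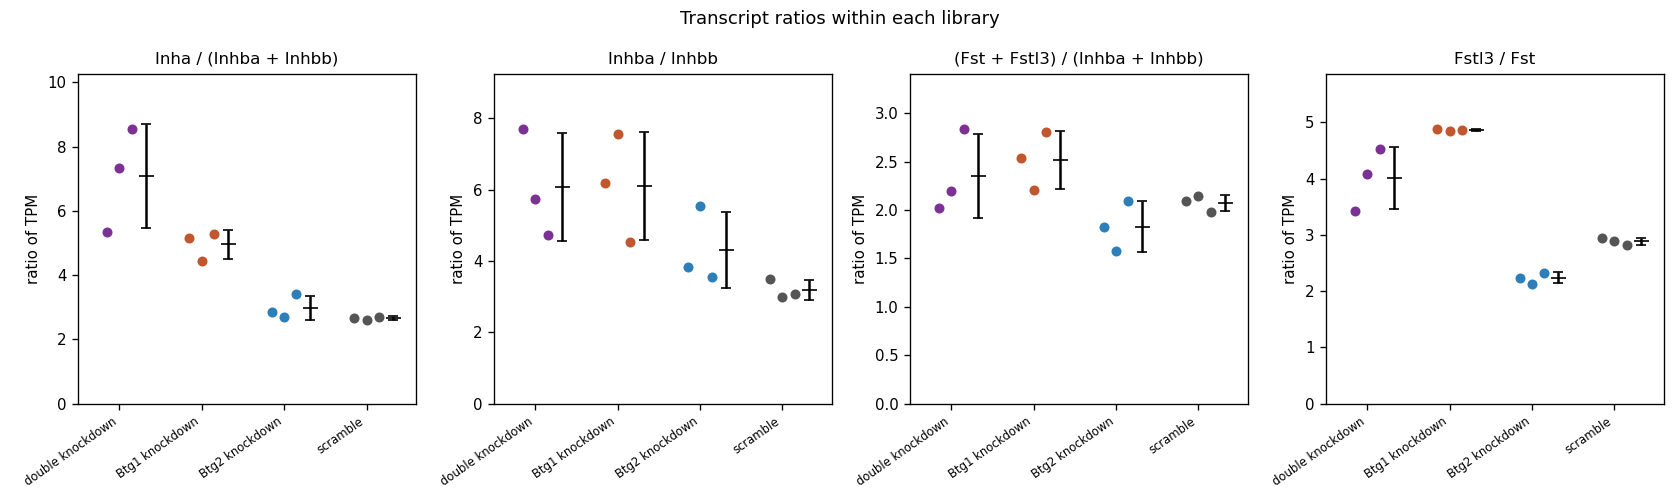
Ratios of TPM within each library (vertical axes, linear from 0), with a point per library and the mean ± SD of 3 libraries beside each group. The ratio of Inha to the beta subunits is above 4.4 in every double and Btg1 knockdown library and at most 3.42 elsewhere; the ratio of Fstl3 to Fst separates all 4 groups.

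Of the related ligands, Gdf11, close in sequence to myostatin, was higher in all knockdowns. It stood at 33.1, 34.9 and 33.8 CPM in the double knockdown, 30.6, 29.2 and 28.0 CPM in the Btg1 knockdown and 27.3, 30.0 and 28.2 CPM in the Btg2 knockdown, against 23.2, 23.8 and 26.0 CPM in scramble. All double knockdown libraries lay above all others, the single knockdowns overlapped each other, and all scramble libraries lay lowest. The rise was 0.48 ± 0.06 on the log2 scale in the double knockdown (edgeR adjusted p = 1.19e-06), 0.27 ± 0.06 in the Btg1 knockdown (edgeR adjusted p = 0.00133) and 0.22 ± 0.06 in the Btg2 knockdown (edgeR adjusted p = 0.00832). The double knockdown also exceeded the Btg1 knockdown (0.21 ± 0.06, edgeR adjusted p = 0.0122) and the Btg2 knockdown (0.26 ± 0.06, edgeR adjusted p = 0.00205), and its change departed from the sum of the single changes by -0.01 ± 0.09 (edgeR adjusted p = 0.951). Without scramble replicate 1 the Btg2 call was lost (edgeR adjusted p = 0.0536), and without Btg1 knockdown replicate 3 so was the difference between the double and the Btg1 knockdown (edgeR adjusted p = 0.0656). Mstn, the myostatin gene, had 1, 2 and 0 counts in the double knockdown, 7, 4 and 2 in the Btg1 knockdown and 0, 0 and 2 in the Btg2 knockdown, against 1, 4 and 0 in scramble, too few for a comparison at this depth.

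Follistatin and follistatin-like 3, which bind the same ligands, moved in different groups. Fstl3 stood at 22.0, 18.5 and 21.4 CPM in the double knockdown, 23.2, 24.03 and 26.8 CPM in the Btg1 knockdown and 17.4, 15.4 and 17.4 CPM in the Btg2 knockdown, against 15.5, 16.1 and 15.3 CPM in scramble. The Btg1 and double knockdowns lay above the other groups with no overlap, and the Btg2 knockdown overlapped with scramble. Against scramble, the log2 rise of Fstl3 was 0.40 ± 0.08 in the double knockdown (edgeR adjusted p = 0.000289) and 0.66 ± 0.08 in the Btg1 knockdown (edgeR adjusted p = 5.62e-07). In the Btg2 knockdown the difference of 0.11 ± 0.08 did not pass (edgeR adjusted p = 0.346). The double knockdown was lower than the Btg1 knockdown (-0.26 ± 0.08, edgeR adjusted p = 0.0178), a call lost without double knockdown replicate 2 or without Btg1 knockdown replicate 3 (edgeR adjusted p = 0.114 in each).

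Fst, the follistatin gene, stood at 18.3, 12.9 and 13.6 CPM in the double knockdown, 13.5, 14.2 and 15.7 CPM in the Btg1 knockdown and 22.2, 20.7 and 21.4 CPM in the Btg2 knockdown, against 15.0, 16.0 and 15.4 CPM in scramble. Only the Btg2 knockdown lay apart, above every library of the other groups. Its rise over scramble was 0.47 ± 0.10 on the log2 scale (edgeR adjusted p = 0.000912), and the Btg1 knockdown was lower than it by 0.57 ± 0.10 (log2 change -0.57, edgeR adjusted p = 6.94e-05). The double knockdown was also lower than the Btg2 knockdown (-0.53 ± 0.10, edgeR adjusted p = 0.000243). Against scramble, the double knockdown differed by -0.06 ± 0.10 (edgeR adjusted p = 0.7). Without its replicate 1, the high library, that difference became -0.23 and passed (edgeR adjusted p = 0.0393). As a ratio of TPM, Fstl3 to Fst was 4.01 ± 0.548 in the double knockdown, 4.86 ± 0.023 in the Btg1 knockdown and 2.23 ± 0.0976 in the Btg2 knockdown, against 2.89 ± 0.0606 in scramble (SD, n = 3 each).

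Fstl1, which encodes a secreted glycoprotein with a follistatin-type domain, was the most abundant transcript of the family, at 374 ± 17.3 TPM in the double knockdown, 422 ± 20.9 in the Btg1 knockdown and 445 ± 7.13 in the Btg2 knockdown, against 421 ± 5.69 TPM in scramble. In CPM it stood at 436, 431 and 407 in the double knockdown, 484, 460 and 510 in the Btg1 knockdown and 516, 513 and 508 in the Btg2 knockdown, against 492, 481 and 475 in scramble. The double knockdown lay below all other groups. It was lower than scramble (-0.18 ± 0.04 on the log2 scale, edgeR adjusted p = 0.00076), than the Btg1 knockdown (-0.19 ± 0.04, edgeR adjusted p = 0.00131) and than the Btg2 knockdown (-0.27 ± 0.04, edgeR adjusted p = 1.47e-05). Neither single knockdown passed against scramble (0.01 ± 0.04 for Btg1 and 0.09 ± 0.04 for Btg2, edgeR adjusted p = 0.934 and 0.115). The summed fibroblast markers were lowest in the double and Btg1 knockdowns, and their part in the Fstl1 difference was not tested.

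The receptor genes differed in abundance and in pattern. Acvr2b stood at 3.08, 3.19 and 3.50 CPM in the double knockdown, 2.53, 1.81 and 2.44 CPM in the Btg1 knockdown and 4.63, 3.50 and 3.18 CPM in the Btg2 knockdown, against 2.19, 2.00 and 2.05 CPM in scramble. These values rest on 68 to 179 counts per library. The libraries that received siBtg2 all lay above those that did not. The log2 rise of Acvr2b was 0.65 ± 0.18 in the double knockdown (edgeR adjusted p = 0.00489) and 0.86 ± 0.17 in the Btg2 knockdown (edgeR adjusted p = 0.000592), while the Btg1 knockdown differed from scramble by 0.13 ± 0.18 (edgeR adjusted p = 0.633). The double knockdown exceeded the Btg1 knockdown by 0.52 ± 0.17 (edgeR adjusted p = 0.0302), a call lost without double knockdown replicate 2 (adjusted p = 0.0572), double knockdown replicate 3 (0.0812) or Btg1 knockdown replicate 2 (0.14) in the same edgeR test.

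Acvr2a was about an order of magnitude more abundant, at 22.9 TPM in scramble against 2.30 TPM for Acvr2b. It stood at 27.7, 26.2 and 23.3 CPM in the double knockdown, 29.1, 30.1 and 27.4 CPM in the Btg1 knockdown and 31.1, 29.0 and 30.7 CPM in the Btg2 knockdown, against 25.2, 26.5 and 27.1 CPM in scramble. Each single knockdown lay above scramble, and the double knockdown overlapped with it. Acvr2a was higher in the Btg2 knockdown (0.21 ± 0.07 on the log2 scale, edgeR adjusted p = 0.0191) and did not pass in the Btg1 knockdown (0.14 ± 0.06, edgeR adjusted p = 0.108) or the double knockdown (-0.03 ± 0.07, edgeR adjusted p = 0.729). The Btg2 call was lost in edgeR without scramble replicate 1 (adjusted p = 0.0919), Btg2 knockdown replicate 1 (0.0675) or Btg2 knockdown replicate 3 (0.0651). It was also lost when scaling by library size alone (0.0571) and with limma on log2(TPM + 1) (0.0587) and on log2(TPM + 0.1) (0.0585). The double knockdown was lower than the Btg2 knockdown (-0.24 ± 0.07, edgeR adjusted p = 0.00637).

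**Figure D3:**
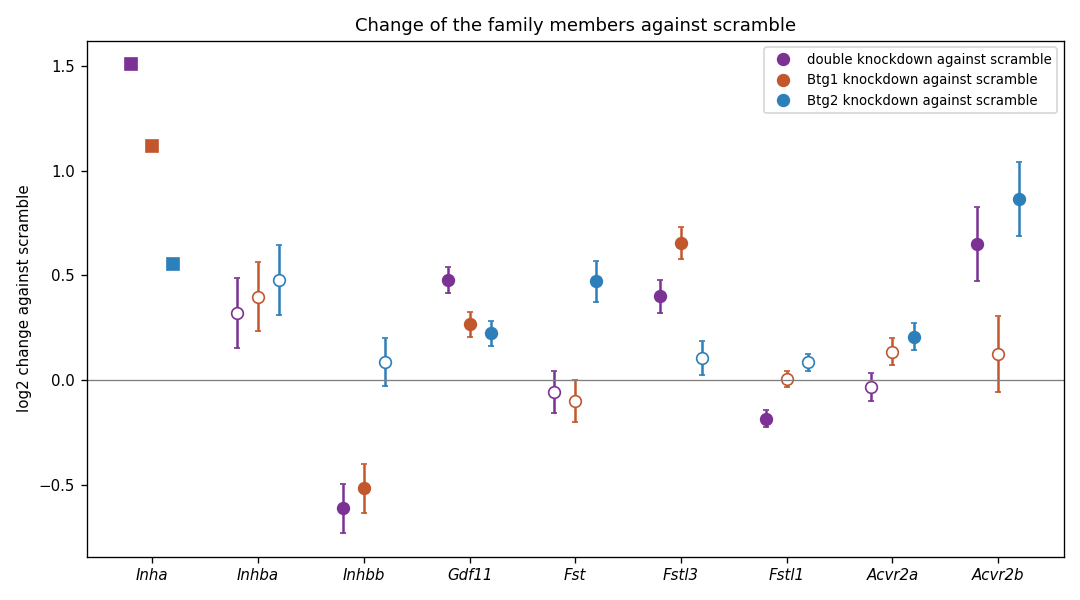
Log2 change against scramble (vertical axis) of the 9 family members that passed the filter, for the double, Btg1 and Btg2 knockdowns; bars are ± SE, filled circles have an edgeR adjusted p under 0.05, open circles do not, and squares mark Inha, which has no test and no bar. Inhbb is below 0 in the groups that received siBtg1, and Acvr2b is highest in those that received siBtg2.

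Counted by comparison, 5 of the 8 tested genes besides Inha passed in the double knockdown against scramble, Fstl3, Gdf11 and Acvr2b higher and Inhbb and Fstl1 lower, where 38.9% of all 12535 tested genes passed, 19.4% higher and 19.5% lower. In the Btg1 knockdown against scramble 3 passed, Fstl3 and Gdf11 higher and Inhbb lower, beside 36.5% of all genes, 18.7% higher and 17.8% lower. In the Btg2 knockdown against scramble 4 passed, Fst, Gdf11, Acvr2a and Acvr2b, all higher, beside 30% of all genes, 16.4% higher and 13.6% lower; without scramble replicate 1 this count was 2. The median log2 change of the 8 genes was 0.145 in the double knockdown, 0.131 in the Btg1 knockdown and 0.215 in the Btg2 knockdown, each beside a median within 0.01 of 0 over all tested genes. These comparisons share the scramble libraries. With 8 genes, shares of this size are not read as apart from the background.

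Between the knockdowns, 4 of 8 passed in the double against the Btg1 knockdown (Gdf11 and Acvr2b higher, Fstl1 and Fstl3 lower), beside 22.3% of all genes, 10.3% higher and 11.9% lower, and 2 did without double knockdown replicate 2 or without Btg1 knockdown replicate 3. In the double against the Btg2 knockdown 6 passed (Fstl3 and Gdf11 higher, Inhbb, Fst, Fstl1 and Acvr2a lower), beside 32.2%, 15.2% higher and 17% lower. In the Btg1 against the Btg2 knockdown 4 passed, beside 40.8%, 20.3% higher and 20.6% lower. Fstl3 was higher by 0.55 ± 0.08 on the log2 scale (edgeR adjusted p = 5.41e-06), and Inhbb, Fst and Acvr2b were lower. The departure of the double knockdown from the sum of the single log2 changes passed for 4 genes, Fst, Fstl1, Fstl3 and Acvr2a, all negative, beside 15.1% of all genes, 4.99% positive and 10.1% negative. For these genes the double knockdown was lower than adding the single changes gives. The same held for the targeted genes Btg1 and Btg2, with departures of -0.44 and -0.65 (edgeR adjusted p = 2.86e-05 and 1.36e-07).

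Gdf11 was the family member whose log2 CPM over the 12 libraries was most like that of Inha, with a Pearson correlation of 0.914, rank 187 of the 9780 genes averaging at least 5 CPM. Fstl3 had 0.765, Inhba 0.352, Acvr2a -0.12, Fst -0.33, Fstl1 -0.62 and Inhbb -0.80; Acvr2b averaged under 5 CPM. Over all genes, the 8 most like Inha were Klhdc8b, Clptm1, Art4, Pea15, Mtx2, Myo18a, Zwint and Pitpnm2, with correlations of 0.976 to 0.996. Klhdc8b, the closest, averaged 145.9 CPM in the double knockdown, 121.3 in the Btg1 knockdown and 86.78 in the Btg2 knockdown, against 65.71 in scramble. Pea15, which encodes a death-effector-domain protein that binds ERK, averaged 387.9, 336.7 and 277.5 CPM in the double, Btg1 and Btg2 knockdowns, against 201.3 CPM in scramble. The 4 least like were Poglut3, Yipf5, Il13ra1, a chain of the interleukin 13 receptor, and Bin1, which shapes T-tubule membranes in cardiomyocytes, with correlations of -0.98. Bin1 averaged 17.47, 19.21 and 27.51 CPM in the double, Btg1 and Btg2 knockdowns, against 34.22 CPM in scramble. The libraries share their groups, so these values describe likeness over 4 group levels.

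**Figure D4:**
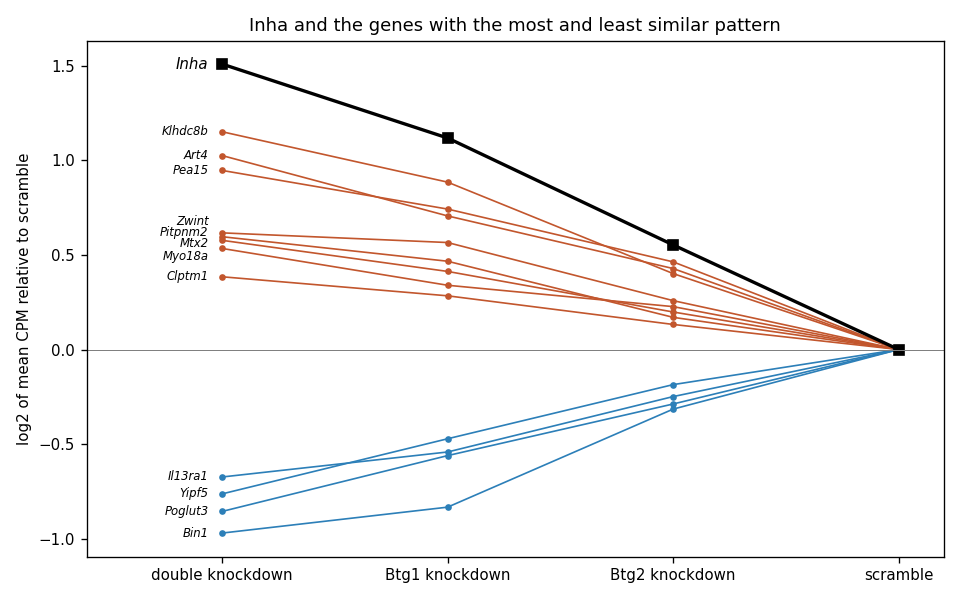
Log2 of the mean CPM relative to scramble (vertical axis) in the 4 groups for Inha (black squares), the 8 genes with the highest Pearson correlation with it over the 12 libraries (orange) and the 4 with the lowest (blue). The orange genes order the groups as Inha does with smaller differences, and the blue genes run the other way.

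Other genes of the pathway were taken from 7 lists of 63 genes, of which 58 were in the table and 47 passed the filter. In the double knockdown against scramble 7 of the 47 were higher and 15 lower, 46.8% beside the 38.9% of all genes (19.4% higher and 19.5% lower). In the Btg1 knockdown 11 were higher and 10 lower, 44.7% beside 36.5% (18.7% higher and 17.8% lower). In the Btg2 knockdown 13 were higher and 7 lower, 42.6% beside 30% (16.4% higher and 13.6% lower). Their median log2 changes were -0.0881, -0.04 and 0.0628 in the double, Btg1 and Btg2 knockdowns. The counts given below for each list rest on 5 to 8 tested genes and are not read as apart from these shares.

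Among other ligands of the activin type II receptors, Bmp7, a bone morphogenetic protein, rose in every knockdown. It averaged 45.9 ± 2.63 CPM in the double knockdown, 55.7 ± 1.44 in the Btg1 knockdown and 37.5 ± 1.70 in the Btg2 knockdown, against 30.8 ± 2.35 CPM in scramble (SD, n = 3 each; edgeR adjusted p = 6.94e-08, 1.62e-10 and 0.00111). Bmp6, Bmp4 and Gdf1 were lower in the double knockdown, by log2 changes of -0.38, -0.54 and -0.29 (edgeR adjusted p = 0.000113, 0.0114 and 0.012). Of the 6 tested ligands 1 was higher and 3 lower in the double knockdown, 1 higher in the Btg1 knockdown, and 2 higher and 1 lower in the Btg2 knockdown. The Gdf1 call in the double knockdown was lost without scramble replicate 2 (edgeR adjusted p = 0.0762) or double knockdown replicate 2 (0.0737). Gdf1 was the ligand lower in the Btg2 knockdown (-0.26 ± 0.09, edgeR adjusted p = 0.0364), a call lost without scramble replicate 1 or 2 or any Btg2 knockdown library (edgeR adjusted p = 0.0519 to 0.172) and with no filter (0.0501).

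Acvr1b, which encodes ALK4, the type I receptor of activin, averaged 91.4 ± 9.56 CPM in the double knockdown, 80.8 ± 2.16 in the Btg1 knockdown and 124 ± 5.41 in the Btg2 knockdown, against 99.9 ± 4.80 CPM in scramble (SD, n = 3 each). It was lower in the Btg1 knockdown (-0.30 ± 0.06 on the log2 scale, edgeR adjusted p = 0.000304) and higher in the Btg2 knockdown (0.31 ± 0.06, edgeR adjusted p = 0.000323). In the double knockdown its difference, -0.13 ± 0.06, did not pass (edgeR adjusted p = 0.0897) but did without double knockdown replicate 1 (-0.21, edgeR adjusted p = 0.00294). Tgfbr1, the type I receptor of TGF-beta, was lower in the double knockdown (-0.41 ± 0.06, edgeR adjusted p = 1.98e-05). The BMP receptors Bmpr1a and Bmpr2 were higher in the Btg1 knockdown (0.31 and 0.19, edgeR adjusted p = 1.62e-05 and 0.00615) and in the Btg2 knockdown (0.39 and 0.42, edgeR adjusted p = 1.85e-06 and 3.39e-06). In the double knockdown neither passed, but both did without double knockdown replicate 3 (0.12 and 0.13, edgeR adjusted p = 0.0341 and 0.0372). Of the 8 tested receptors and co-receptors, 3 were lower in the double knockdown, 2 higher and 1 lower in the Btg1 knockdown, and 5 higher in the Btg2 knockdown.

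Of the extracellular inhibitors, Chrd, which encodes the BMP-binding protein chordin, averaged 4.36 ± 0.192 CPM in the double knockdown and 4.43 ± 0.961 in the Btg1 knockdown, against 7.87 ± 0.422 CPM in scramble (SD, n = 3 each; log2 changes -0.85 and -0.83, edgeR adjusted p = 1.79e-05 and 2.67e-05). Grem1, which encodes another secreted BMP-binding protein, was higher in the Btg2 knockdown (0.49 ± 0.13 on the log2 scale, edgeR adjusted p = 0.00669). Dcn, which encodes the matrix proteoglycan decorin and is also one of the fibroblast markers, was lower in the double knockdown (-0.27 ± 0.05, edgeR adjusted p = 0.000152). Of the 7 tested inhibitors 2 were lower in the double and in the Btg1 knockdown, and 1 was higher and 2 lower in the Btg2 knockdown. The 2 include Dcn (edgeR adjusted p = 0.0474), whose Btg2 call was lost without any scramble library or Btg2 knockdown replicate 1 or 3 (edgeR adjusted p = 0.0555 to 0.198), with RLE scaling (0.0508) and with limma (0.0729 and 0.0735). Among 6 tested proteases that process these ligands, the proprotein convertase gene Pcsk6 was higher in the double, Btg1 and Btg2 knockdowns (0.34, 0.14 and 0.21, edgeR adjusted p = 1.99e-07, 0.0072 and 0.000232). Without scramble replicate 2 the Btg1 call for Pcsk6 was lost (edgeR adjusted p = 0.0518). Pcsk5 was lower in all of them (-0.38, -0.29 and -0.31, edgeR adjusted p = 3.1e-05, 0.000718 and 0.000629). Pcsk7 was lower as well (-0.29, -0.15 and -0.17, edgeR adjusted p = 0.000137, 0.0288 and 0.0192). Its Btg1 call was lost in edgeR without scramble replicate 1 or 2 or Btg1 knockdown replicate 1 or 2 (adjusted p = 0.0532 to 0.134), and its Btg2 call without scramble replicate 1 or 2 or Btg2 knockdown replicate 3 (0.0696 to 0.0871). Furin was higher in the double knockdown (0.20 ± 0.04, edgeR adjusted p = 0.000296) and the Btg2 knockdown (0.15 ± 0.04, edgeR adjusted p = 0.00634).

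The activin-responsive SMAD genes Smad2 and Smad3, and the shared partner gene Smad4, passed in no knockdown against scramble. Smad1, an effector of BMP receptors, was higher in the double knockdown (0.20 ± 0.05 on the log2 scale, edgeR adjusted p = 0.00527) and the Btg1 knockdown (0.35 ± 0.05, edgeR adjusted p = 1.77e-05), and Smad9, another, was lower in the double knockdown (-0.71 ± 0.13, edgeR adjusted p = 0.00013). The inhibitory Smad6 and Smad7 were higher in the Btg1 knockdown (0.33 and 0.31, edgeR adjusted p = 0.00497 and 0.000206). Of 8 SMAD genes 1 was higher and 1 lower in the double knockdown, 3 higher in the Btg1 knockdown and none called in the Btg2 knockdown. There Smad1 passed without Btg2 knockdown replicate 1 (0.17, edgeR adjusted p = 0.0439). Smad7 passed there without Btg2 knockdown replicate 3 (0.19, edgeR adjusted p = 0.0385) and with only the groups compared (0.14, edgeR adjusted p = 0.0386).

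Known SMAD2 and SMAD3 targets and corepressors did not move one way. Fbxo32, the muscle ubiquitin ligase gene atrogin-1, averaged 16.3 ± 1.71 CPM in the double knockdown, 14.5 ± 1.81 in the Btg1 knockdown and 33.7 ± 2.65 in the Btg2 knockdown, against 25.7 ± 0.882 CPM in scramble (SD, n = 3 each). It was lower in the double and Btg1 knockdowns (-0.66 and -0.81 on the log2 scale, edgeR adjusted p = 2.16e-06 and 1.38e-07) and higher in the Btg2 knockdown (0.39, edgeR adjusted p = 0.000975). Pmepa1, an induced feedback inhibitor of SMAD signalling, was lower in the double, Btg1 and Btg2 knockdowns (-0.48, -0.18 and -0.37, edgeR adjusted p = 1.45e-06, 0.0223 and 8.41e-05). The Btg1 call for Pmepa1 was lost in edgeR without scramble replicate 1 (adjusted p = 0.0979), Btg1 knockdown replicate 1 (0.112) or Btg1 knockdown replicate 2 (0.0831). Tgif1, a SMAD corepressor gene, was lower in the double and Btg1 knockdowns (-0.42 and -0.38, edgeR adjusted p = 3.31e-07 and 1.4e-06), and Ccn2, a matricellular growth factor gene, was higher in the Btg1 knockdown (0.69 ± 0.09, edgeR adjusted p = 0.000165). Of 7 tested genes 1 was higher and 3 lower in the double knockdown, 1 higher and 4 lower in the Btg1 knockdown, and 1 higher and 1 lower in the Btg2 knockdown.

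Of the 5 tested regulators known to act on the Inha promoter in gonadal cells, 2 were higher and 1 lower in the double knockdown, 3 higher and 1 lower in the Btg1 knockdown, and 2 higher in the Btg2 knockdown. The NR5A family genes were near the floor. Nr5a1 averaged at most 0.202 CPM in a group and did not pass the filter, and Nr5a2, among the 5, averaged at most 0.312 CPM. Gata4, a cardiac and gonadal transcription factor gene, averaged 419 ± 14.8 CPM in the double knockdown, 455 ± 6.99 in the Btg1 knockdown and 414 ± 2.45 in the Btg2 knockdown, against 376 ± 7.27 CPM in scramble (SD, n = 3 each; edgeR adjusted p = 0.00147, 2.21e-06 and 0.00584). Its relative Gata6 was lower in the double and Btg1 knockdowns (-0.19 and -0.16 on the log2 scale, edgeR adjusted p = 0.00022 and 0.00145). Crem, a cyclic AMP-responsive modulator gene, was higher in the double and Btg1 knockdowns (0.32 and 0.37, edgeR adjusted p = 0.00103 and 0.000288), calls lost with limma on log2(TPM + 0.1) (adjusted p = 0.112 and 0.0632). The double knockdown call was also lost with limma on log2(TPM + 1) (adjusted p = 0.0863). Creb1, which encodes the factor CREB, was higher in the Btg1 knockdown (0.48 ± 0.13, edgeR adjusted p = 0.00448) and in the Btg2 knockdown (0.35 ± 0.13, edgeR adjusted p = 0.0427). In the double knockdown Creb1 did not pass, but did without double knockdown replicate 3 (0.45, edgeR adjusted p = 0.00486). Leaving out any scramble or Btg2 knockdown library ended the Btg2 call for Creb1 (edgeR adjusted p = 0.074 to 0.124). So did scaling by library size alone (edgeR adjusted p = 0.0665) and limma with pseudocounts of 1 and 0.1 (adjusted p = 0.0629 and 0.0653).

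**Figure D5:**
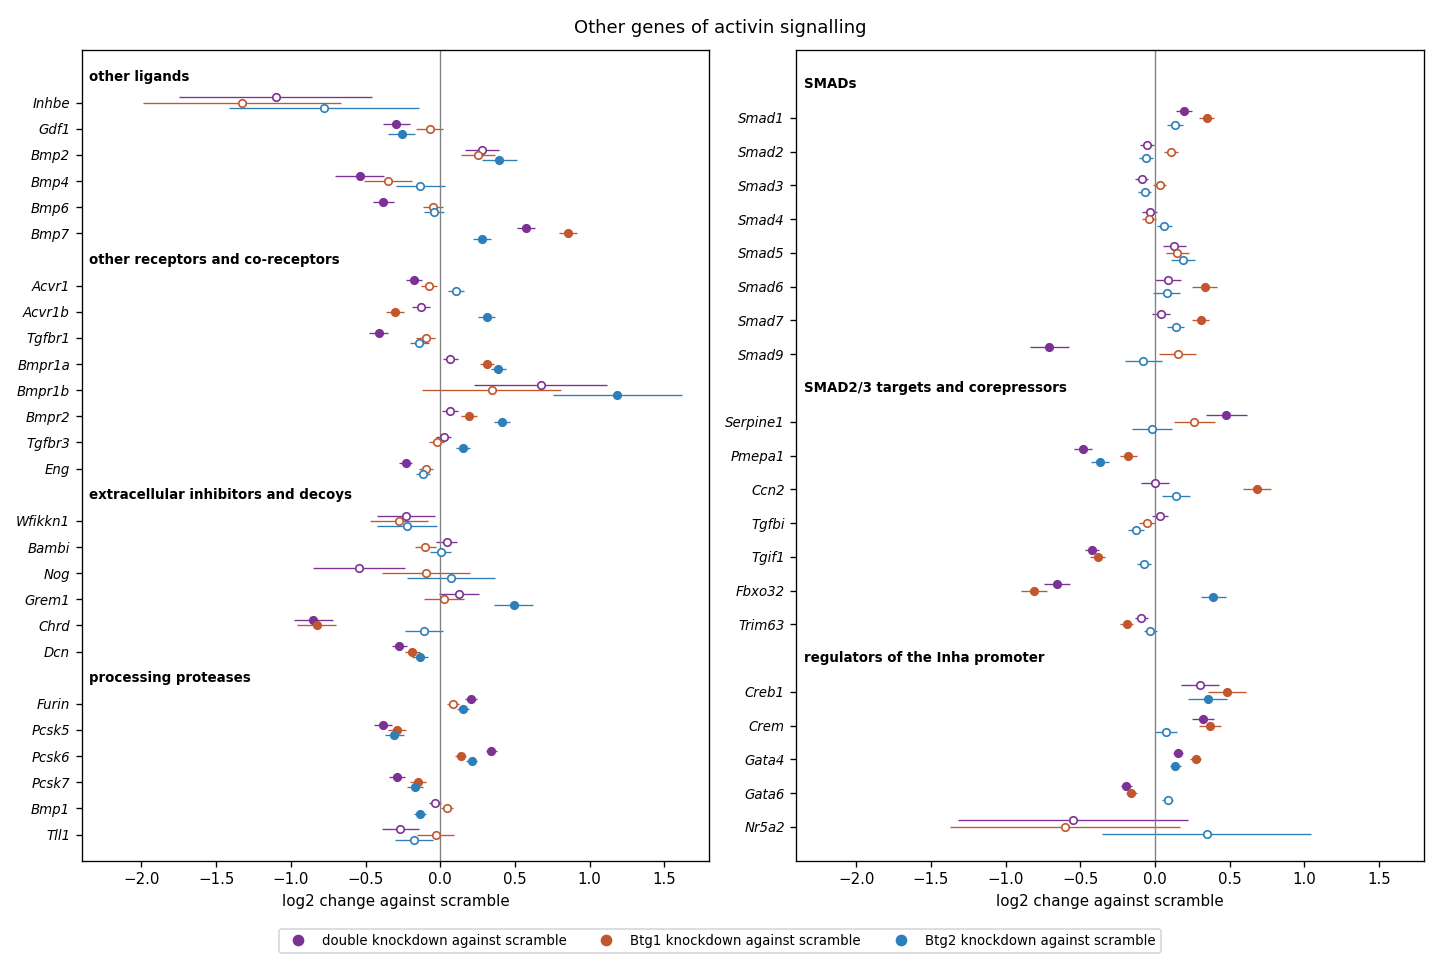
Log2 change against scramble (horizontal axis) of tested pathway genes by list, for the double, Btg1 and Btg2 knockdowns; bars are ± SE, filled points have an edgeR adjusted p under 0.05 and open points do not. Bmp7 and Pcsk6 are higher and Pcsk5 and Pmepa1 lower in all comparisons, and Fbxo32 and Acvr1b lie on opposite sides of 0 in the Btg1 and Btg2 knockdowns.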

How the data were processed

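Total RNA was amplified (Ovation RNA-Seq System v2), made into Nextera XT libraries and read in pairs on a HiSeq instrument, per the labels' protocols. Tools named in the submitters' processing notes, with no version, are STAR, featureCounts, cutadapt, Trim Galore and FastQC, and the genome is rn5. The sources used here give neither the strand setting nor the annotation. Deposited by the authors were whole-number counts for each gene and TPM values. Amplified reads without molecular identifiers are not independent molecules, and antisense or overlapping genes may share reads. Groups came from titles and treatment labels.

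Counts of 17419 genes in 12 libraries were tested with edgeR 4.0.16 (R 4.3.3): a quasi-likelihood fit to all libraries, robust, with TMM factors (0.971 to 1.02) and group means as its terms (8 residual degrees of freedom). filterByExpr kept 12535 genes. P-values were adjusted by Benjamini-Hochberg over these in each of 7 comparisons and called at 0.05. Each count added 0.0213 to 0.0422 CPM, after TMM. The SE was derived from the log2 change and its F.

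Members and lists were chosen with earlier results of these data known. All members were named. Of each pathway list, up to 4 genes with the smallest p in a comparison against scramble were named, and the 8 genes most and 4 least correlated with Inha (log2 CPM with 0.5 added, mean at least 5 CPM). Smad2, Smad3, Smad4, Nr5a1 and Nr5a2 were added after their values were seen. A gene that this rule names is not reported here. Alternatives were no filter, a minimum of 1 CPM in 6 libraries, library size alone or RLE factors as scaling, DESeq2 1.42.0, a replicate block, limma 3.58.1 with TPM as log2(TPM + 1) or as log2(TPM + 0.1), only the groups compared, and leaving out each library. The steps were tested on simulated data. Promoter windows came from RefSeq (GRCr8).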

Additional observations from a re-analysis of the deposited data

Results flagged for a closer look

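For 4 members the effect of one siRNA differed with the presence of the other, by the test of that difference (in edgeR, the log2 change in the double knockdown minus both single changes, with Benjamini-Hochberg adjusted p over 12535 genes). Fstl1 departed by -0.28 ± 0.06 (SE, adjusted p = 0.00165), with log2 changes against scramble of -0.18 in the double, 0.01 in the Btg1 and 0.09 in the Btg2 knockdown. Acvr2a departed by -0.38 ± 0.09 (adjusted p = 0.00708), with -0.03, 0.14 and 0.21 in the double, Btg1 and Btg2 knockdowns. Both kept their call in all alternatives and without any one library.

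Fstl3 departed by -0.36 ± 0.11 (adjusted p = 0.03), with 0.40, 0.66 and 0.11 in the double, Btg1 and Btg2 knockdowns. Its call was lost without scramble replicate 1 (0.0653) or 3 (0.064), double knockdown replicate 2 (0.0752), Btg1 knockdown replicate 3 (0.0925), or Btg2 knockdown replicate 1 (0.0706) or 3 (0.0784), and with limma. Fst departed by -0.43 ± 0.14 (adjusted p = 0.0448), with -0.06, -0.10 and 0.47 in the double, Btg1 and Btg2 knockdowns, and its call was lost without any one library except double knockdown replicate 1 or Btg1 knockdown replicate 1 (0.0612 to 0.118), with library size alone (0.0583) and with limma. These genes passed in a comparison in which 15.1% of all tested genes did. The targeted genes departed in the same direction, Btg1 by -0.44 ± 0.06 (edgeR adjusted p = 2.86e-05) and Btg2 by -0.65 ± 0.06 (edgeR adjusted p = 1.36e-07). Btg1 averaged 51.7 CPM in the double against 66.2 in the Btg1 knockdown, and Btg2 68.7 CPM against 85.2 in the Btg2 knockdown. The part of this deeper knockdown in the departures of the 4 members was not tested.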

How the results depend on the processing

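The log2 change of Inha against scramble ran over the alternatives from 1.49 to 1.54 in the double, 1.09 to 1.15 in the Btg1 and 0.52 to 0.59 in the Btg2 knockdown, with no test. Counts of members passing stayed within 1.5 times of those reported under most settings. In the Btg2 knockdown against scramble, leaving out 1 library gave 2 to 4 members and 12 to 17 pathway genes; 2 members passed without scramble replicate 1, and 12 pathway genes without scramble replicate 2. In the double against the Btg1 knockdown it gave 2 to 5 members and 10 to 17 pathway genes; with limma 10 pathway genes passed and with only the groups compared 11, against 17. For the departure from additivity it gave 2 to 5 members, and limma gave 2, against 4.

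Reversed signs were all of differences near 0 that passed neither in the main fit nor where the sign turned. The ranges below also hold values that kept their sign, and in the double knockdown against scramble 2 of these passed. They were Fst at -0.229 without double knockdown replicate 1 (edgeR adjusted p = 0.0393) and Bmpr2 at 0.129 without double knockdown replicate 3 (edgeR adjusted p = 0.0372). For Fstl1 in the Btg1 knockdown the log2 difference was -0.0006604 with library size alone and -2e-04 and -0.0002029 with limma using pseudocounts of 1 and 0.1. The departure of Gdf11 was 0.0251 with library size alone and 0.0182 and 0.017 with these limma fits, and Ccn2 in the double knockdown was -0.002239 with library size alone. Leaving out 1 library gave, in the double knockdown against scramble, -0.229 to 0.0389 for Fst, -0.0900 to 0.0342 for Acvr2a, -0.0164 to 0.129 for Bmpr2 and -0.0498 to 0.0300 for Ccn2. In the Btg1 knockdown against scramble it gave -0.0333 to 0.0425 for Fstl1, -0.0484 to 0.0838 for Grem1 and -0.114 to 0.0225 for Bmp6. In the Btg2 knockdown against scramble it gave -0.001505 to 0.170 for Inhbb, -0.0953 to 0.0107 for Bmp6 and -0.136 to 0.0177 for Smad9. In the double against the Btg1 knockdown it gave -0.127 to 0.141 for Fst, -0.301 to 0.0711 for Inhba and -0.166 to 0.0512 for Inhbb. It gave -0.185 to 0.00512 for Inhba in the Btg1 against the Btg2 knockdown and -0.0622 to 0.0243 for the departure of Gdf11. The cause was not tested.

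Same-numbered libraries did not deviate together over all tested genes (correlations of deviations -0.092 to 0.060, against -0.107 to 0.133 for other pairs). No label says what a replicate number marks, and these correlations would miss a shared culture or day that acted on a few genes. With a replicate block, 5, 4, 5, 4, 6, 4 and 3 members passed in the 7 comparisons, against 5, 3, 4, 4, 6, 4 and 4 without it. The block ended the calls for the departure of Fst (edgeR adjusted p = 0.0518) and for Gdf1 (0.0504) and Dcn (0.0568) in the Btg2 knockdown. With it Inhba passed in the Btg1 (0.041) and Btg2 (0.021) knockdowns, and Acvr1b in the double knockdown (0.0416). Depth limits Mstn and, less, Acvr2b.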
